A study of Mus musculus with 10 samples.

Results

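The genes described here encode Rab GTPases and synaptotagmin-like proteins, and were taken by name as every gene on the array whose symbol in the platform annotation is Rab with a number and at most 1 letter, or begins with Sytl and a number. There were 52 of them, 48 Rab genes and 4 Sytl genes, among 15097 genes with a symbol and 20243 features in all. Each had 1 probe except Sytl4, whose 2 probes were averaged. RNA was compared between mouse FDB1 cells that carry the receptor mutant FI-Delta Y577F (Y577F below) and FDB1 cells that carry FI-Delta, an activated form of the beta chain that IL-3, IL-5 and GM-CSF receptors have in common. FDB1 is a myeloid progenitor line that depends on IL-3. The 4 groups were Y577F cells at 72 h without IL-3, Y577F cells at 0 h in IL-3, FI-Delta cells at 72 h without IL-3 and FI-Delta cells at 0 h in IL-3, with 2 cultures each. All groups carry the FI-Delta change, and cells without a mutant receptor, or held in IL-3 for 72 h, were not analysed here. Whether a line is a clone or a pool is not given in the sources used here.

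Rab proteins are small GTPases that sit on the membranes of particular compartments when bound to GTP and recruit the proteins that move, tether and fuse vesicles. Rab27 and Rab3 proteins act on secretory granules, Rab5 proteins on early endosomes, Rab7 on late endosomes and lysosomes, Rab11 and Rab4 proteins on recycling endosomes, and Rab1, Rab2 and Rab6 proteins on the endoplasmic reticulum and the Golgi. Synaptotagmin-like proteins bind Rab27 through their amino-terminal domain and link granules to the plasma membrane. In myeloid cells and mast cells these proteins control the release of granule contents and the maturation of phagosomes.

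On 10 2-colour spotted arrays, each array gave the log2 ratio between a pair of RNAs. Direct comparisons of 72 h with 0 h were made on 2 arrays of Y577F cells (Y577F time arrays 1 and 2) and on 3 of FI-Delta cells (FI-Delta time arrays 1 to 3, of which 1 and 2 are a dye swap of the same RNA). The lines were compared on 2 arrays at 72 h and on 3 at 0 h. Ratios below are turned so that a positive value means more RNA at 72 h or in Y577F cells. The direction is likely and not stated, and turning it would turn every sign. Estimates are log2 changes ± the standard error of 1 limma model over 9 hybridisations and all features. A gene was called, and is said to have risen or fallen, at an adjusted p under 0.05. The 5 comparisons share arrays and are not independent. Between arrays of opposite dye order, turned ratios correlated over all features with r of 0.63 for Y577F time, 0.519 at 72 h, and 0.236 and 0.351 for FI-Delta time. The value of 0.236 is for FI-Delta time arrays 1 and 2, the dye swap of the same RNA. FI-Delta time arrays 1 and 3, of different extracts in the same dye order, had r = 0.539. 0 h array 1, the only 0 h array in its dye order, had r of 0.0871 and -0.0374 against 0 h arrays 2 and 3. Those arrays correlated with r = 0.357 and share a dye order. A number shared by their titles was read as an extract of Y577F cells, although the order in the titles attaches it to FI-Delta cells. Ratios give no levels, so the labelled cell type could not be checked against its markers. A smaller number of cells of a type and less RNA per cell cannot be told apart in these bulk RNAs.

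In Y577F cells 14 of the 52 genes rose and 3 fell at 72 h, which is 32.7% called, against 18% of all features, of which 9.28% rose and 8.75% fell. In FI-Delta cells 6 rose and 2 fell, which is 15.4%, against 8.16% of all features, of which 5.19% rose and 2.97% fell. The count of the 52 genes was 10 in Y577F cells with Y577F time array 1 or 2 left out, and 5 in FI-Delta cells without FI-Delta time array 3. The median change of the 52 genes was 0.05 in Y577F cells and 0.09 in FI-Delta cells, against medians over all features of 0.01 and -0.01. From the arrays that compare the times directly, without the others, 9 genes were called in Y577F cells (Rab27b, Sytl3, Rab14, Rab7, Rab32, Rab1b, Rab5b, Rab5c and Rab10) and 5 in FI-Delta cells (Rab27b, Sytl3, Rab32, Rab3d and Rab27a). Over all features these direct arrays gave 2224 calls in Y577F cells and 912 in FI-Delta cells, against 3649 and 1652 in the full model. With array weights 18 were called in FI-Delta cells, and with the dye swap as 2 hybridisations 16, beside 3786 and 2409 of all features. With a coefficient for each RNA extract, 7 were called in Y577F cells and 3 in FI-Delta cells, beside 1721 and 544 of all features. Of the 52 genes, 4 (7.69%) rose in both lines, against 3.25% of all features, and 2 (3.85%) fell in both, against 1.89%. None was called in opposite directions, as 0.203% of all features were. In no comparison were 27 (51.9%) called, against 74.8% of all features. At least 2-fold changes were called for 2 genes in each line, Rab27b and Sytl3, which is 3.85% of the 52, against 1.85% of all features in Y577F cells and 0.716% in FI-Delta cells. Both fell. They are among 11 genes listed for secretory granules and exocytosis, of which 2 rose and 2 fell in each line. Rab27b and Sytl3 were also given as markers of this set of genes, which was chosen with earlier results of these data known.

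**Figure D1:**
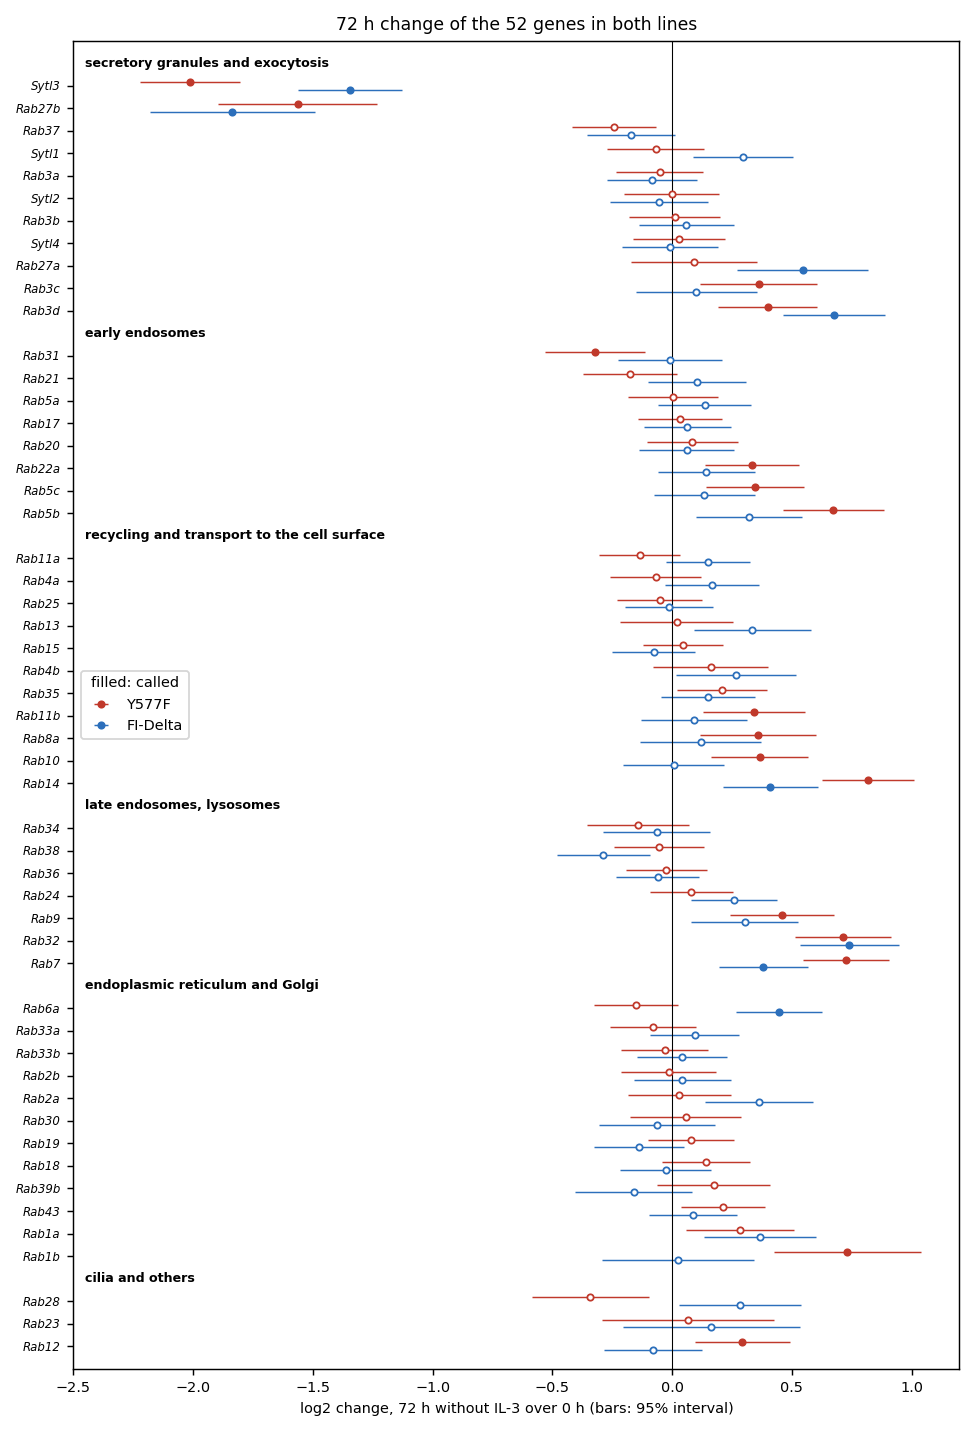
Log2 change at 72 h over 0 h (horizontal axis, log2) of the 52 genes by role, in Y577F cells (red) and FI-Delta cells (blue), with 95% intervals of the model and filled points where called. Sytl3 and Rab27b lie between -2.01 and -1.34 in both lines, while no other gene lies outside -0.34 to 0.82.

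Rab27b, a Rab of secretory granules and platelet dense granules, fell in both lines. Its direct log2 ratios of 72 h over 0 h were -1.97 and -1.25 on the Y577F time arrays, and -1.82, -2.14 and -1.55 on the FI-Delta time arrays. Every array lay far below 0, in both dye orders, and the values of the lines overlapped. The estimated change was -1.56 ± 0.15 in Y577F cells (2.96-fold, adjusted p = 2.74e-05) and -1.84 ± 0.16 in FI-Delta cells (3.57-fold, adjusted p = 3.39e-05). The difference between these changes was 0.27 with a 95% interval of -0.11 to 0.65 (adjusted p = 0.379). A difference of that size was not called.

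Rab27b also differed between the lines at both times. In Y577F over FI-Delta cells its ratios were 1.34 and 0.73 on the 72 h arrays and 0.70, 0.63 and 0.79 on the 0 h arrays. All 5 arrays gave more Rab27b RNA in Y577F cells. The estimates were 0.99 ± 0.15 at 72 h (1.99-fold, adjusted p = 0.00104) and 0.72 ± 0.14 at 0 h (1.65-fold, adjusted p = 0.0252). The 0 h call was lost without 0 h array 1 (0.70, adjusted p = 0.305), 2 (0.77, adjusted p = 0.0697) or 3 (0.71, adjusted p = 0.0923), with nearly the same estimate each time.

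Sytl3, a synaptotagmin-like protein with a Rab27-binding domain and C2 domains, fell in both lines, and further in Y577F cells. Its ratios of 72 h over 0 h were -2.27 and -1.89 on the Y577F time arrays, and -1.28, -1.51 and -1.08 on the FI-Delta time arrays. The values of the lines did not overlap. Such a separation, given below for other genes too, also occurred where the difference was not called, as for Rab10, Rab11a and Rab5c. Its share over all features was not counted. In each such case FI-Delta time arrays 1 and 2 are a dye swap of the same RNA, so their values are not independent. The change was -2.01 ± 0.10 in Y577F cells (4.03-fold, adjusted p = 1.92e-07) and -1.34 ± 0.10 in FI-Delta cells (2.54-fold, adjusted p = 1.45e-05). The difference between the changes, -0.67 ± 0.11, was called (adjusted p = 0.00301), also with each array left out in turn. It was not called from the time arrays alone (-0.84, adjusted p = 0.119), or with a coefficient for each RNA extract (-0.72, adjusted p = 0.0548).

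At 0 h the lines differed in Sytl3 RNA. Y577F over FI-Delta cells had ratios of 0.03 and 0.08 on the 72 h arrays, against 0.67, 0.61 and 0.64 on the 0 h arrays. At 0 h Y577F cells had 1.58-fold more Sytl3 RNA (0.66 ± 0.09, adjusted p = 0.00287), a call lost without 0 h array 1 (0.60, adjusted p = 0.101) and from the 0 h arrays alone (0.64, adjusted p = 0.0604). At 72 h the difference was -0.01 with a 95% interval of -0.22 to 0.20 (adjusted p = 0.966). Sytl3 and Rab27b were the 2 genes of the 52 called at 0 h, 3.85% against 1.42% of all features, and both were higher, as were 0.934% of all features. Without 0 h array 1 limma called 0 of the 52 at 0 h, with 6 at an unadjusted p under 0.05, and without 0 h array 2 or 3 it called 1. With all arrays, 9 had an unadjusted p under 0.05.

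**Figure D2:**
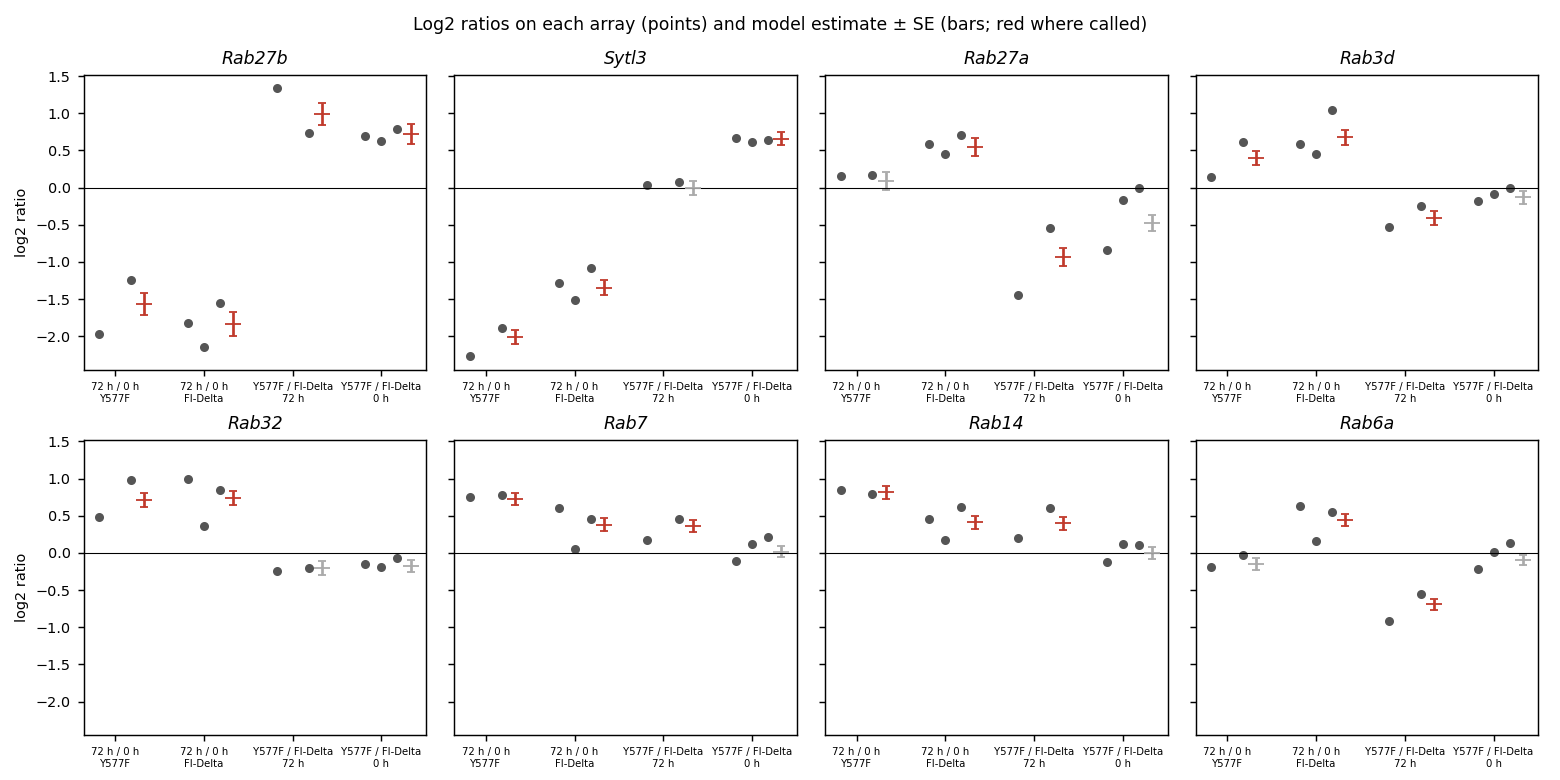
Log2 ratios (vertical axis) of 8 genes on each array (grey points) in the 4 direct comparisons, beside the estimate of the model ± SE (red where called, grey where not). Rab27b and Sytl3 lie below 0 on all 5 time arrays. Sytl3 lies at 0.61 to 0.67 at 0 h and at 0.03 and 0.08 at 72 h.

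The promoters of 3 of these genes are shown because Sytl3 had the largest estimated decline of the 52 genes, in Y577F cells, and Rab32 and Rab14 rose in both lines. Each runs from 250 bases before to 50 bases after the annotated start of transcription and comes from RefSeq on GRCm38.p6, in which Sytl3 is at chr17:6658809-6659108 (plus strand), Rab32 at chr10:10558158-10558457 (minus strand) and Rab14 at chr2:35201071-35201370 (minus strand). Capitals mark a match to a searched motif.
Sytl3: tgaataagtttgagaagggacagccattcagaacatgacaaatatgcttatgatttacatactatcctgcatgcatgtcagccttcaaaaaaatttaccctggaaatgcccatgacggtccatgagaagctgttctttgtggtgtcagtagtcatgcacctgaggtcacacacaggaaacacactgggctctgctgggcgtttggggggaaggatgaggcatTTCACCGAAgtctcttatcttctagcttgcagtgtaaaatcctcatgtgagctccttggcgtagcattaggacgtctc
Rab32: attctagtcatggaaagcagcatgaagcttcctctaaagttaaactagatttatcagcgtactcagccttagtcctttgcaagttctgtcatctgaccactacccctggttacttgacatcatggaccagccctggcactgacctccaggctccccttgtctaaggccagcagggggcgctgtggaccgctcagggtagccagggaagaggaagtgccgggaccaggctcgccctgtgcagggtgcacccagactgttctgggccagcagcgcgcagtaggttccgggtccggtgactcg
Rab14: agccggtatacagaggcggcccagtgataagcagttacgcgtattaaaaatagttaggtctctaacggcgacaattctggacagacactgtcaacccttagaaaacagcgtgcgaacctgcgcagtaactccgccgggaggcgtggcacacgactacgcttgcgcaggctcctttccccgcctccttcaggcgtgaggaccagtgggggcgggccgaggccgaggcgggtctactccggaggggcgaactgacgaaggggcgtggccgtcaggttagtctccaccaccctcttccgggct
The 4 motifs, searched on both strands, were the STAT pattern TTCNNNGAA, the E-box CACGTG, the C/EBP pattern TTGCNNAA and the AP-1 pattern TGANTCA. Sytl3 had 1 STAT pattern, starting 28 bases before the start, and Rab32 and Rab14 had no match in these windows. Of 32851 promoters of the same length, 8.3% held the STAT pattern, 7.15% the E-box, 10.8% the C/EBP pattern and 7.81% the AP-1 pattern. Among 55 promoters of 43 of the 52 genes, the counts were 7, 6, 2 and 3. A match of letters is a description and not a bound site.

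Rab27a is the close relative of Rab27b that serves granules of neutrophils and cytotoxic lymphocytes, and it rose in FI-Delta cells. Its ratios of 72 h over 0 h were 0.15 and 0.17 in Y577F cells, and 0.59, 0.45 and 0.71 in FI-Delta cells. The FI-Delta arrays all lay above the Y577F arrays. The change was 0.09 ± 0.12 in Y577F cells (adjusted p = 0.689) and 0.55 ± 0.12 in FI-Delta cells (1.46-fold, adjusted p = 0.0194). The call was lost without FI-Delta time array 2 (0.48, adjusted p = 0.084) or 3 (0.61, adjusted p = 0.0539), and the difference between the lines, -0.45 ± 0.14, was not called (adjusted p = 0.0659).

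Between the lines, Rab27a was lower in Y577F cells at 72 h, where Rab27b was higher. Its ratios of Y577F over FI-Delta cells were -1.45 and -0.54 on the 72 h arrays, and -0.84, -0.17 and -0.000465 on the 0 h arrays. The estimate at 72 h was -0.93 ± 0.12 (1.90-fold, adjusted p = 0.000335), a call kept under all 18 alternatives tried. At 0 h it was -0.47 ± 0.11 (adjusted p = 0.0629), with 0 h array 1 far below the other two.

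Rab3d, which sits on secretory granules of exocrine and mast cells, rose in both lines. It had ratios of 0.14 and 0.62 in Y577F cells and 0.58, 0.45 and 1.04 in FI-Delta cells. All 5 arrays were above 0 and the lines overlapped. The change was 0.40 ± 0.09 in Y577F cells (adjusted p = 0.0115), lost without Y577F time array 2 (0.36, adjusted p = 0.0869), and 0.68 ± 0.10 in FI-Delta cells (adjusted p = 0.00118). The FI-Delta call was lost with a coefficient for each RNA extract (0.75, adjusted p = 0.0543). At 72 h it was lower in Y577F cells (-0.41 ± 0.09, adjusted p = 0.0137), a call lost without 72 h array 1 (-0.44, adjusted p = 0.0702) or 2 (-0.40, adjusted p = 0.107).

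The roles below are read beside all features, of which 9.28% rose and 8.75% fell in Y577F cells, and 5.19% rose and 2.97% fell in FI-Delta cells. Whether any role departed from these shares was not tested. Of the 11 genes for secretory granules and exocytosis, 2 rose and 2 fell in Y577F cells, and 2 rose and 2 fell in FI-Delta cells. The second to rise in Y577F cells was Rab3c, a Rab3 form best known from neurons, at 0.36 ± 0.11 (adjusted p = 0.043). That call was lost without any 1 of 7 arrays, namely 72 h arrays 1 and 2, 0 h array 2, FI-Delta time arrays 2 and 3 and Y577F time arrays 1 and 2, where it lay between 0.29 and 0.43. Sytl1, another Rab27 effector of blood cells, changed by -0.07 ± 0.09 in Y577F cells and 0.30 ± 0.10 in FI-Delta cells (adjusted p = 0.702 and 0.0913). It was lower in Y577F cells at 72 h (-0.33 ± 0.09, adjusted p = 0.035), which did not hold without 72 h array 1 (-0.36, adjusted p = 0.132), 72 h array 2 (-0.30, adjusted p = 0.223) or Y577F time array 2 (-0.30, adjusted p = 0.0648). Rab37, a secretory granule Rab of mast cells, changed by -0.24 ± 0.08 in Y577F cells and -0.17 ± 0.08 in FI-Delta cells (adjusted p = 0.0569 and 0.288). Sytl2, Sytl4, Rab3a and Rab3b lay between -0.08 and 0.06 in both lines.

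Markers of granulated and other blood cells moved in the same RNAs to unequal extents. Over all features, 9.28% rose and 8.75% fell in Y577F cells, and 5.19% rose and 2.97% fell in FI-Delta cells. Between the lines at 72 h, 12.9% of all features were called. Of 15 mast cell and basophil markers, 2 rose and 4 fell in Y577F cells (median -0.12, range -1.06 to 0.57), and none rose and 5 fell in FI-Delta cells (median -0.13, range -2.57 to 0.15). Between the lines at 72 h, Y577F cells had 5 higher and 1 lower. Of 14 neutrophil secondary and tertiary granule markers, 5 rose and 2 fell in Y577F cells (median 0.08, range -0.67 to 2.37), and 12 rose and none fell in FI-Delta cells (median 1.46, range 0.15 to 2.45). Of 13 monocyte and macrophage markers, 12 rose in Y577F cells (median 1.78, range 0.24 to 3.14) and 9 in FI-Delta cells (median 0.49, lowest -0.09), and none fell in either. Of 11 megakaryocyte and platelet markers, 3 rose and 3 fell in Y577F cells (median 0.12, range -0.85 to 1.04), and 2 rose and 1 fell in FI-Delta cells (median 0.10, range -1.99 to 0.64). The lowest of the 11 in both lines was the integrin gene Itga2b, at -0.85 ± 0.10 in Y577F cells and -1.99 ± 0.11 in FI-Delta cells. It was the only 1 of the 11 to fall in FI-Delta cells, and the medians of the list lay above 0. Of 7 erythroid markers, 1 rose and 2 fell in Y577F cells and 1 fell in FI-Delta cells, and of 10 lymphoid markers, 1 fell in Y577F cells and 1 rose in FI-Delta cells. Their part in the changes of Rab27b, Sytl3 and the other genes was not tested.

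Rab32 and Rab7 were the only late endosome and lysosome genes that rose in both lines. Of 7 genes with this role, 3 rose and none fell in Y577F cells, and 2 rose and none fell in FI-Delta cells. Among all features 9.28% rose in Y577F cells and 5.19% in FI-Delta cells. Rab24 (0.08 in Y577F and 0.26 in FI-Delta cells), Rab34 (-0.14 and -0.06) and Rab36 (-0.02 and -0.06) were called in neither line. Rab32, which acts on lysosome-related organelles and mitochondria, had ratios of 0.48 and 0.98 in Y577F cells, and of 1.00, 0.36 and 0.85 in FI-Delta cells. All arrays were above 0 and the lines overlapped. The change was 0.71 ± 0.09 in Y577F cells (1.64-fold, adjusted p = 0.000204) and 0.74 ± 0.09 in FI-Delta cells (1.67-fold, adjusted p = 0.000511). The difference of these changes was -0.03 with a 95% interval of -0.25 to 0.20. Its closest relative, Rab38, changed by -0.06 ± 0.09 and -0.29 ± 0.09 (adjusted p = 0.747 in Y577F and 0.0763 in FI-Delta cells). Rab38 was higher in Y577F cells at 72 h (0.49 ± 0.09, adjusted p = 0.00236), which missed the threshold without 72 h array 1 (0.43, adjusted p = 0.0514).

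Rab7, the Rab of late endosomes, phagosomes and lysosomes, had ratios of 0.75 and 0.78 in Y577F cells, and of 0.60, 0.05 and 0.46 in FI-Delta cells. Both Y577F arrays lay above all 3 FI-Delta arrays. The change was 0.73 ± 0.08 in Y577F cells (1.65-fold, adjusted p = 8.12e-05) and 0.38 ± 0.08 in FI-Delta cells (1.30-fold, adjusted p = 0.0161). The FI-Delta call was lost without FI-Delta time array 1 (0.32, adjusted p = 0.0508) or 3 (0.39, adjusted p = 0.0804) or Y577F time array 1 (0.33, adjusted p = 0.0531). Rab7 was 1.28-fold higher in Y577F cells at 72 h (0.36 ± 0.08, adjusted p = 0.0128), lost without 72 h array 1 (0.41, adjusted p = 0.0504) or 2 (0.36, adjusted p = 0.0887). At 0 h the ratios were -0.11, 0.12 and 0.22 and the difference was 0.01 with a 95% interval of -0.15 to 0.17. Rab9, which returns receptors from late endosomes to the Golgi, changed by 0.46 ± 0.10 in Y577F cells (adjusted p = 0.00671) and 0.30 ± 0.10 in FI-Delta cells (not called). Without Y577F time array 1 the first value was 0.38 (adjusted p = 0.109).

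Of 11 recycling and surface transport genes, 4 rose and none fell in Y577F cells, and 1 rose and none fell in FI-Delta cells. Among all features 9.28% rose in Y577F cells and 5.19% in FI-Delta cells. Rab14, which works between early endosomes, the Golgi and phagosomes, had ratios of 0.85 and 0.79 in Y577F cells, and of 0.46, 0.18 and 0.61 in FI-Delta cells. The lines did not overlap. It rose by 0.82 ± 0.09 in Y577F cells (1.76-fold, adjusted p = 5.56e-05) and by 0.41 ± 0.09 in FI-Delta cells (1.33-fold, adjusted p = 0.0157). The FI-Delta call was lost without FI-Delta time array 3 (0.36, adjusted p = 0.13) or Y577F time array 1 (0.35, adjusted p = 0.0528). On the 72 h arrays Y577F over FI-Delta cells had 0.21 and 0.60, against -0.12, 0.12 and 0.10 at 0 h. The 72 h estimate was 0.40 ± 0.09 (adjusted p = 0.0098), lost without 72 h array 2 (0.34, adjusted p = 0.13).

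The other 3 that rose in Y577F cells carry cargo to the cell surface or recycle it. Rab10 rose by 0.37 ± 0.09 (adjusted p = 0.0176) and was also higher in Y577F cells at 72 h (0.37 ± 0.09, adjusted p = 0.0233). The first call was lost without Y577F time array 1 (0.39, adjusted p = 0.0937) or 2 (0.26, adjusted p = 0.168), and the other without 72 h array 1 (0.41, adjusted p = 0.0901) or 2 (0.41, adjusted p = 0.0914). Rab11b rose by 0.34 ± 0.10 (adjusted p = 0.0301), and was not called without 72 h array 2 (0.32, adjusted p = 0.0577) or Y577F time array 1 (0.19, adjusted p = 0.39). Rab8a changed by 0.36 ± 0.11 (adjusted p = 0.0427) and was not called without any 1 of 7 arrays, namely 0 h arrays 1, 2 and 3, 72 h array 1, FI-Delta time arrays 2 and 3 and Y577F time array 2, with estimates between 0.23 and 0.37. Rab13 was at 0.02 ± 0.11 in Y577F cells and 0.34 ± 0.11 in FI-Delta cells (adjusted p = 0.939 and 0.1). The remaining recycling genes, Rab4a, Rab4b, Rab11a, Rab15, Rab25 and Rab35, lay between -0.13 and 0.27 in both lines.

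Among all features 9.28% rose and 8.75% fell in Y577F cells, and 8.16% were called in FI-Delta cells. Of 8 early endosome genes, 3 rose and 1 fell in Y577F cells, and none was called in FI-Delta cells. In FI-Delta cells 1 had an unadjusted p under 0.05 in limma. Rab5b, 1 of 3 forms of the Rab that drives early endosome fusion, had ratios of 0.72 and 0.57 in Y577F cells, and of 0.25, 0.74 and 0.12 in FI-Delta cells. All were above 0, and FI-Delta time array 2 was as high as the Y577F arrays. The change was 0.67 ± 0.10 in Y577F cells (1.60-fold, adjusted p = 0.000492), kept with each array left out in turn, and 0.32 ± 0.10 in FI-Delta cells (adjusted p = 0.0796). Rab5c rose by 0.35 ± 0.09 in Y577F cells (adjusted p = 0.0234), lost without Y577F time array 1 (0.29, adjusted p = 0.216) or 2 (0.26, adjusted p = 0.183). Rab5a was at 0.00 ± 0.09 in Y577F cells and 0.14 ± 0.09 in FI-Delta cells.

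Rab22a, which sorts cargo out of early endosomes, rose by 0.33 ± 0.09 in Y577F cells (adjusted p = 0.0236). That call was lost without Y577F time array 1 (0.35, adjusted p = 0.118) or 2 (0.34, adjusted p = 0.0929). Rab31, a relative of Rab22a and Rab5, changed by -0.32 ± 0.10 in Y577F cells (adjusted p = 0.036), between -0.31 and -0.28 and not called without 72 h arrays 1 or 2, 0 h array 2, FI-Delta time array 3 or Y577F time array 2. At 72 h Rab31 (-0.38 ± 0.10, adjusted p = 0.0213) and Rab21 (-0.36 ± 0.09, adjusted p = 0.0217), which acts in integrin uptake, were lower in Y577F cells. Without 72 h array 1 they were at -0.33 (adjusted p = 0.178) and -0.33 (adjusted p = 0.152), and without 72 h array 2 at -0.33 (adjusted p = 0.195) and -0.31 (adjusted p = 0.192). At 72 h over 0 h, Rab17 and Rab20 had estimates of 0.03 to 0.08 in both lines.

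Most of the 12 endoplasmic reticulum and Golgi genes were not called, with 1 higher and none lower in each line, and the called gene was a different one. Among all features 9.28% rose in Y577F cells and 5.19% in FI-Delta cells. Rab6a, a Golgi Rab, had ratios of -0.19 and -0.03 in Y577F cells, and of 0.63, 0.16 and 0.56 in FI-Delta cells. The lines did not overlap. The change was -0.15 ± 0.08 in Y577F cells (adjusted p = 0.244) and 0.45 ± 0.08 in FI-Delta cells (1.36-fold, adjusted p = 0.00567). The difference of the changes, -0.60 ± 0.09, was called (adjusted p = 0.00195), also with each array left out in turn. From the time arrays alone neither that difference (-0.58, adjusted p = 0.165) nor the FI-Delta rise (0.48, adjusted p = 0.0526) was called. With a coefficient for each RNA extract neither was called (-0.64, adjusted p = 0.0967, and 0.50, adjusted p = 0.119). On the 72 h arrays Y577F over FI-Delta cells had -0.91 and -0.55, against -0.22, 0.01 and 0.14 at 0 h, with an estimate of -0.69 ± 0.08 at 72 h (1.62-fold, adjusted p = 0.000129).

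Rab1b, which acts between the endoplasmic reticulum and the Golgi, had ratios of 1.09 and 0.43 in Y577F cells, and of 0.26, 0.25 and -0.38 in FI-Delta cells. Its values spread widely within each line, and FI-Delta time array 3 was on the other side of 0. The change was 0.73 ± 0.14 in Y577F cells (1.66-fold, adjusted p = 0.00317), lost without Y577F time array 1 (0.55, adjusted p = 0.0821), and 0.03 ± 0.14 in FI-Delta cells. At 0 h the ratios of Y577F over FI-Delta cells were -0.72, -0.36 and -0.44, with an estimate of -0.49 ± 0.12 (adjusted p = 0.102). The related gene Rab1a was at 0.28 ± 0.10 in Y577F cells and 0.37 ± 0.11 in FI-Delta cells (adjusted p = 0.0828 and 0.0591). Rab2a, which acts at the same step, was lower in Y577F cells at 72 h (-0.36 ± 0.10, adjusted p = 0.0338), and was at 0.03 ± 0.10 in Y577F cells and 0.36 ± 0.10 in FI-Delta cells over time. Its 72 h call was lost without 72 h array 1 (-0.45, adjusted p = 0.0648) or 2 (-0.23, adjusted p = 0.363), 0 h array 2 (-0.35, adjusted p = 0.0576), Y577F time array 1 (-0.31, adjusted p = 0.0668) or FI-Delta time array 3 (-0.36, adjusted p = 0.0627). Rab19 was higher in Y577F cells at 72 h (0.31 ± 0.08, adjusted p = 0.0284), lost without 72 h array 1 (0.28, adjusted p = 0.195) or 2 (0.26, adjusted p = 0.226) or FI-Delta time array 1 (0.30, adjusted p = 0.0564). The other 7 had estimates of -0.16 to 0.21 at 72 h over 0 h in both lines.

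Of the 3 remaining genes, Rab28, linked to cilia and photoreceptors, had ratios of -0.15 and -0.51 in Y577F cells, and of 0.40, 0.02 and 0.42 in FI-Delta cells. The lines did not overlap. Neither change was called, at -0.34 ± 0.11 in Y577F cells (adjusted p = 0.0568) and 0.28 ± 0.12 in FI-Delta cells (adjusted p = 0.191), but the difference, -0.63 ± 0.13, was (adjusted p = 0.0109), also with each array left out. It was not called from the time arrays alone (-0.64, adjusted p = 0.192), or with a coefficient for each RNA extract (-0.65, adjusted p = 0.0637). At 72 h Rab28 was lower in Y577F cells (-0.54 ± 0.11, adjusted p = 0.00737), lost without 72 h array 1 (-0.42, adjusted p = 0.116) and from the 72 h arrays alone (-0.56, adjusted p = 0.071). Rab12, which acts on the sorting of receptors to lysosomes, changed by 0.29 ± 0.09 in Y577F cells (adjusted p = 0.0437) and -0.08 ± 0.09 in FI-Delta cells. That call was lost without any 1 of 7 arrays, namely 0 h arrays 1 and 2, 72 h arrays 1 and 2, FI-Delta time arrays 2 and 3 and Y577F time array 1, with estimates between 0.21 and 0.30. Rab23 was not called in any comparison.

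Between the lines at 72 h, 6 of the 52 genes were higher and 8 lower in Y577F cells, which is 26.9% called against 12.9% of all features, of which 6.44% were higher and 6.45% lower. The higher genes were Rab27b, Rab38, Rab14, Rab10, Rab7 and Rab19, and the lower ones were Rab27a, Rab6a, Rab28, Rab3d, Rab31, Rab21, Rab2a and Sytl1. Without 72 h array 1 there were 4 calls and without 72 h array 2 there were 5. Rab27b, Rab27a and Rab6a were called with each array left out in turn, and these 3 alone were called from the 72 h arrays by themselves. In the same comparison 3 neutrophil granule markers were higher and 10 lower in Y577F cells, and 11 monocyte and macrophage markers were higher and none lower. At 0 h, where 1.42% of all features were called, the counts were 1 and 9 for neutrophil granule markers, and 4 and none for monocyte and macrophage markers. Their part in the differences of the Rab and Sytl genes was not tested.

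**Figure D3:**
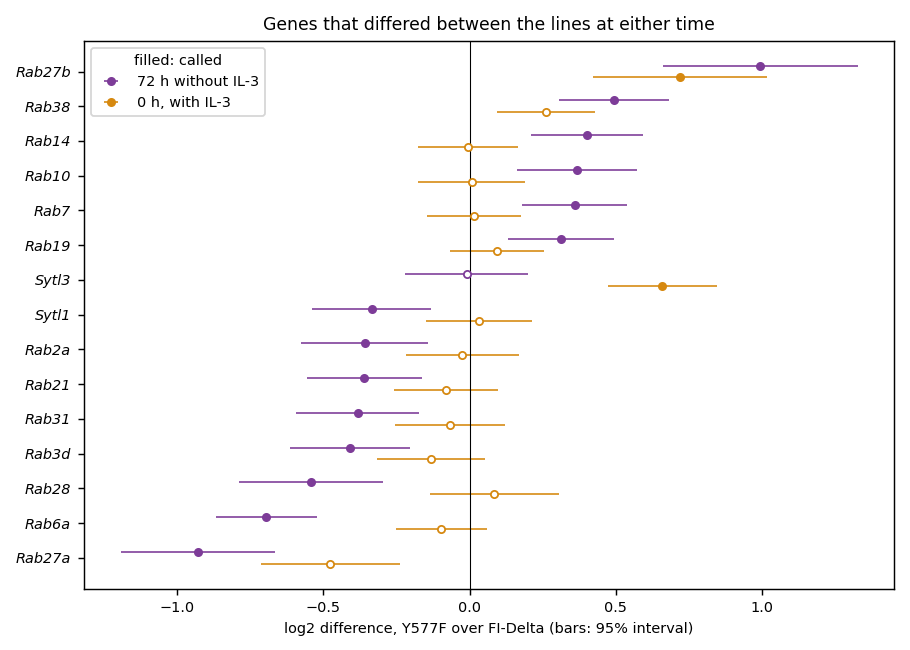
Log2 difference of Y577F over FI-Delta cells (horizontal axis, log2) at 72 h (purple) and 0 h (orange) for the 15 genes called at either time, with 95% intervals and filled points where called. Rab27b and Rab27a lie at opposite ends at 72 h, at 0.99 and -0.93, and Sytl3 is the gene called at 0 h but not at 72 h.

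The change at 72 h differed between the lines for 7 of the 52 genes, which is 13.5% against 9.24% of all features, of which 4.33% had a higher and 4.91% a lower change in Y577F cells. The count was 4 without 0 h array 1 and 3 without 72 h array 2. It was larger upwards in Y577F cells for Rab1b (0.71 ± 0.16, adjusted p = 0.0178), Rab14 (0.41 ± 0.10, adjusted p = 0.0271), Rab12 (0.37 ± 0.10, adjusted p = 0.0461) and Rab7 (0.34 ± 0.09, adjusted p = 0.0411), and it was negative for Sytl3, Rab28 and Rab6a. The last 3 kept their calls with each array left out in turn. Rab1b lost its call without 0 h array 1 (0.51, adjusted p = 0.0754) or 72 h array 2 (0.74, adjusted p = 0.0748). Rab14 lost its call without 0 h array 1 (0.40, adjusted p = 0.0956), 72 h array 2 (0.35, adjusted p = 0.152) or Y577F time array 1 (0.36, adjusted p = 0.062). Rab7 and Rab12 each lost theirs without any 1 of 8 arrays, Rab7 without any array but 0 h array 3 and FI-Delta time array 1, and Rab12 without any but 0 h array 3 and Y577F time array 2. From the time arrays alone limma called none of the 52 differences, with 11 at an unadjusted p under 0.05. With a coefficient for each RNA extract it also called none, with 13 at an unadjusted p under 0.05.

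**Figure D4:**
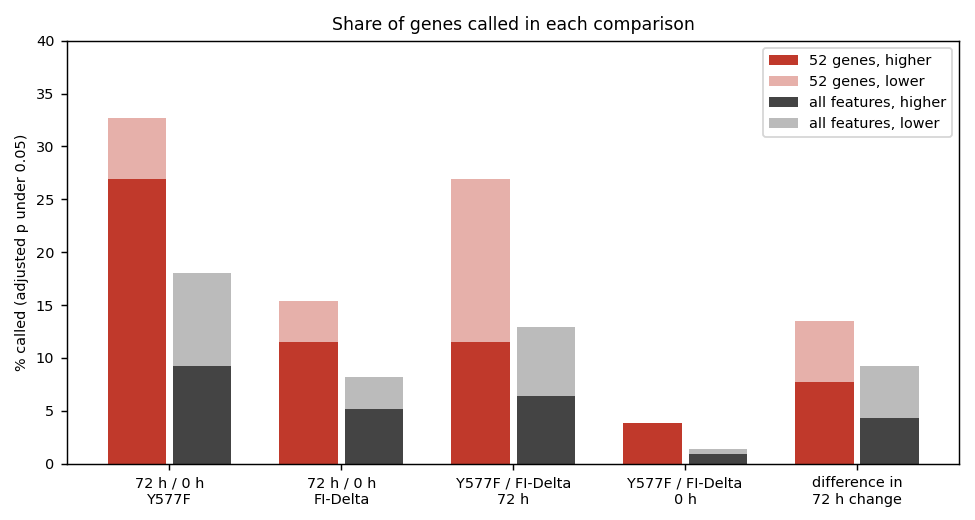
Percent of the 52 genes (red, pale where lower) and of all 20243 features (dark grey, pale where lower) called at an adjusted p under 0.05 in each of the 5 comparisons (vertical axis from 0). The bars reach 32.7% and 18% for the Y577F time change, and 3.85% and 1.42% for the lines at 0 h.

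Of genes listed as loading, switching and using Rab proteins, the array measured 20 of 34 exchange factors, 21 of 35 GTPase-activating proteins, 27 of 44 other effectors, 42 of 47 SNAREs and partners, 15 of 17 synaptotagmins and 7 of 10 genes for escort and prenylation. Over all features, 18% were called in Y577F cells and 8.16% in FI-Delta cells at 72 h. Between the lines the shares were 12.9% at 72 h and 1.42% at 0 h, and for the difference of the changes 9.24%. Whether any list departed from these shares was not tested. Among the 20 exchange factors, which load Rabs with GTP, 3 rose and none fell in Y577F cells, and 4 rose and none fell in FI-Delta cells. Ric1, part of an exchange factor of Rab6, rose by 1.08 ± 0.10 in Y577F cells and by 0.57 ± 0.10 in FI-Delta cells, and the difference, 0.51 ± 0.11, was called (adjusted p = 0.017). Rin2, which loads Rab5, rose by 0.88 ± 0.16 in Y577F cells, and Gapvd1, which also acts on Rab5, by 0.45 ± 0.09 in FI-Delta cells. At 72 h 1 exchange factor was higher and 3 lower in Y577F cells, with Rab3ip at -0.52 ± 0.14 and Ric1 at 0.46 ± 0.10, and none was called at 0 h, with 0 at an unadjusted p under 0.05 (limma). Dennd2d, an exchange factor of Rab9, also had a called difference between the changes (-0.39 ± 0.10). The medians were 0.09 in Y577F and 0.10 in FI-Delta cells.

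Among 21 GTPase-activating proteins, which switch Rabs off, 5 rose and none fell in Y577F cells (median 0.11), and 3 rose and 1 fell in FI-Delta cells (median 0.13). Tbc1d13 rose by 0.75 ± 0.12 and Evi5 by 0.74 ± 0.09 in Y577F cells. Tbc1d8 rose by 0.86 ± 0.08 and Tbc1d9b fell by 0.52 ± 0.11 in FI-Delta cells. Tbc1d8 was lower in Y577F cells at 72 h (-1.02 ± 0.08), and Rabgap1l was higher there at 72 h (0.78 ± 0.11) and at 0 h (0.44 ± 0.09). In all 2 were higher and 1 lower at 72 h, and 1 was higher at 0 h. The difference of the changes was called for Tbc1d8 (-0.69 ± 0.09) and Tbc1d13 (0.50 ± 0.13).

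Of 27 other Rab effectors, 6 rose and 1 fell in Y577F cells (median 0.09), and 1 rose and 1 fell in FI-Delta cells (median 0.08). Myo5a, the myosin that carries Rab27 and Rab11 vesicles along actin, rose in both lines, by 0.65 ± 0.09 in Y577F cells and 0.66 ± 0.09 in FI-Delta cells. Unc13d, the Munc13-4 protein that binds Rab27a to prime granules for release, fell by 0.48 ± 0.08 in Y577F cells and was at 0.04 ± 0.08 in FI-Delta cells, with a called difference of -0.51 ± 0.09 (adjusted p = 0.00371). At 72 h it was lower in Y577F cells (-0.33 ± 0.08), while Rabep1, an effector of Rab5, was higher (0.59 ± 0.08). Plekhm2, which links lysosomes to kinesin, rose by 0.51 ± 0.08 in Y577F cells, and Ankfy1, a Rab5 effector, was higher in Y577F cells at 72 h (0.41 ± 0.10). Rabep1 fell by 0.42 ± 0.08 in FI-Delta cells, and its difference, 0.44 ± 0.09, was called. The effectors had 2 higher and 1 lower at 72 h and none called at 0 h, with 5 at an unadjusted p under 0.05 (limma).

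SNAREs and their partners, which fuse vesicles with their targets, had 8 higher and 2 lower of 42 in Y577F cells (median 0.08), and 2 higher and 1 lower in FI-Delta cells (median 0.03). Snap29 rose by 0.81 ± 0.10 and Stxbp5, an inhibitor of SNARE assembly, fell by 0.65 ± 0.09 in Y577F cells. Stx11, needed for granule release by lymphocytes and platelets, rose by 0.72 ± 0.11 and Snap23, the plasma membrane SNARE of mast cells and neutrophils, fell by 0.52 ± 0.08 in FI-Delta cells. At 72 h 8 were higher and 4 lower in Y577F cells, with Stxbp5 at -0.73 ± 0.09 and Stx11 at -0.65 ± 0.11. At 0 h 1 was higher, Use1 (0.38 ± 0.08). The change differed between the lines for 7, with Stxbp5 at -0.88 ± 0.10 and Stx11 at -0.56 ± 0.12.

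Of 15 synaptotagmins, the calcium sensors from which the Sytl genes take their name, 1 fell in each line, Syt4 in Y577F cells (-0.41 ± 0.13, adjusted p = 0.0465) and Syt9 in FI-Delta cells (-0.31 ± 0.08, adjusted p = 0.0432). Syt9 was also higher in Y577F cells at 72 h (0.39 ± 0.08). Of 7 genes for Rab escort, prenylation and extraction, 1 rose and 1 fell in Y577F cells, Chml (0.53 ± 0.10), a Rab escort protein, and Rabggtb (-0.31 ± 0.09), a subunit of the prenylating enzyme. In FI-Delta cells none was called, with 2 at an unadjusted p under 0.05 (limma). Gdi2, which extracts Rabs from membranes, had a called difference of -0.34 ± 0.09 between the lines (adjusted p = 0.0455).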

How the data were processed

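The authors deposited 1 normalised log ratio per spot and array. The unit was taken as log2 and the direction as Cy5 over Cy3, because the submitters' processing notes name limma, which writes ratios so. The sources used here give neither its version nor how background and normalisation were handled. Signal intensities were not analysed, so precision is limited by the number of arrays and the depth behind a spot is unknown. The arrays hold 23040 spots, and 1243 controls among them were dropped. Among the 21797 probes kept, 16651 had a single symbol, 137 several and 5009 none. Probes of 1 gene were averaged, which gave 20243 features with 0 missing values. Gene identifiers of 15973 probes matched the RefSeq gene list, which changed 0 symbols among the 52 genes. Signs were turned by the titles and the dye swap of 1 RNA pair was averaged. limma 3.58.1 in R 4.3.3 fitted 3 group coefficients and a dye term, with 5 residual and 6.34 prior degrees of freedom, and two-sided p-values received the Benjamini-Hochberg adjustment across every feature. The dye term was called in 146 features and in 0 of the 52 genes. The labels do not say that cultures were independent beyond 2 biological replicates per line, arrays share extracts, and p-values may measure partly technical spread. Probes may detect related genes, which was not tested. The 52 genes and all lists (roles, pathway genes, markers) were chosen with earlier results of these data known. Every gene of the 52 called in any comparison is named with its value, and up to 2 called genes per pathway list and comparison, plus a few chosen after their values were seen. Alternatives were no dye term, the dye swap as 2 hybridisations, direct arrays alone, a replicate block, scale normalisation, array weights, single probes, features with a symbol alone, and each array left out.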

Additional observations from a re-analysis of the deposited data

Results flagged for a closer look

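For 7 of the 52 genes the 72 h change differed between Y577F and FI-Delta cells by a test of the difference itself. That is 13.5%, against 9.24% of all features. None of the 7 was called from the time arrays alone or with a coefficient for each RNA extract. Rab7 and Rab12 each kept the call in only 2 of the 10 fits with an array left out. As log2 values of the Y577F change minus the FI-Delta change, these were 0.71 for Rab1b, 0.41 for Rab14, 0.37 for Rab12, 0.34 for Rab7, -0.67 for Sytl3, -0.63 for Rab28 and -0.60 for Rab6a. The limma adjusted p lay between 0.00195 for Rab6a and 0.0461 for Rab12. For Sytl3 both lines fell, and for Rab14 and Rab7 both rose. For Rab6a the rise was called in FI-Delta cells, for Rab1b and Rab12 in Y577F cells, and for Rab28 in neither line.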

How the results depend on the processing

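Of 48 calls among the 52 genes, 12 were kept under all 18 alternatives, 17 were kept with each array left out in turn, and no sign turned. Calls of the 52 genes (and of all features) in FI-Delta cells at 72 h, 8 (1652) as reported, numbered 5 (912) from the direct arrays alone, 3 (544) with a replicate block, 18 (3786) with array weights and 16 (2409) with the dye swap as 2 hybridisations. In Y577F cells, 17 (3649) as reported, they numbered 9 (2224) from the direct arrays and 7 (1721) with the replicate block. Between the lines at 72 h, 14 (2609) as reported, they numbered 3 (1018) from the direct arrays and 5 (1060) with the block, and 5537 features were called with array weights. At 0 h, 2 (287) as reported, they numbered 1 (46) from the direct arrays and 0 (22) with the block, where limma gave 5 genes at an unadjusted p under 0.05, and 445 features were called with array weights. For the difference between the lines, 7 (1871) as reported, they numbered 4 (1600) without the dye term, 12 (2475) with array weights, 0 (210) from the direct arrays and 0 (440) with the block, with 11 and 13 genes at an unadjusted p under 0.05 in limma. With each array left out in turn, the counts ran from 5 to 12 (887 to 1953) in FI-Delta cells, 10 to 17 (1949 to 3627) in Y577F cells, 4 to 14 (1403 to 2629) at 72 h, 0 to 3 (57 to 299) at 0 h and 3 to 7 (911 to 1861) for the difference. For the 52 genes the lowest were without FI-Delta time array 3, without Y577F time array 1 or 2, without 72 h array 1, without 0 h array 1 (6 genes at an unadjusted p under 0.05) and without 72 h array 2. For all features the array was the same except Y577F time array 1 alone and, at 72 h, array 2. Without 0 h array 2 or 3, 1 gene was called at 0 h. The block gives each extract its own coefficient and rests on reading numbers 1 and 2 as FI-Delta and 3 and 4 as Y577F cultures, although titles with Y577F in Cy5 attach them to the opposite line. With it the adjusted p was 0.0543 for the rise of Rab3d and 0.119 for that of Rab6a in FI-Delta cells, and 0.0548, 0.0637 and 0.0967 for the differences of Sytl3, Rab28 and Rab6a. Under that reading same-numbered extracts deviated together with r of 0.688 in Y577F and 0.715 in FI-Delta cells, against 0.684 from shared arrays alone, so the numbers are not shown to pair samples. Apart from the alternatives' own use of fewer arrays, the causes were not tested. Without intensities, dim spots could not be filtered.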
